A study of Homo sapiens with 8 samples.

Results

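The genes described here are the cytosolic ribosomal protein genes of BEAS-2B cells, taken by name. A gene was a member if its name is RPL or RPS followed by a number and, where present, the ending A, X, L, AL or L1, or if it is RPLP0, RPLP1, RPLP2 or RPSA. The rule uses names and no measured value. It took 85 of the 29534 gene names in the table, 52 of the large and 33 of the small ribosomal subunit. By name, 77 members are core genes and 8 are paralogs, namely RPL3L, RPL7L1, RPL22L1, RPL26L1, RPL36AL, RPL39L, RPS27L and RPS10L. The pattern misses ribosomal protein genes with other names, such as FAU and RACK1, so the set is full for the pattern but not for the ribosome.

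BEAS-2B is a widely used cell line made from normal human bronchial epithelium and immortalised with a viral gene. All RNA libraries came from cells that were first transfected, with Lipofectamine, for 12 h and then held in cigarette smoke extract (CSE) for 24 h. The plasmid was pcDNA3.1-JunD in the JunD group and the empty pcDNA3.1 vector in the EV group, with 3 libraries each, and there is no group without CSE. JunD is a subunit of AP-1, a transcription factor. A further pair of libraries, 1 precipitated with a JunD antibody and 1 input, came from cells kept in 8% CSE for 24 h. No transfection is stated for this pair. For the RNA samples the labels state no CSE concentration. They also do not say that libraries of a group came from separate cultures, so every p-value rests on a spread between libraries that may be technical.

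Each ribosome needs 1 copy of nearly every ribosomal protein, while the acidic stalk proteins RPLP1 and RPLP2 are present in more copies. The proteins join ribosomal RNA in the nucleolus, where assembly factors fold and trim the particles. Many ribosomal protein mRNAs start with a C followed by a run of pyrimidines, the 5′ terminal oligopyrimidine (TOP) tract. Through this tract LARP1 and the kinase mTOR control how well these mRNAs are translated and how stable they are. Free RPL5 and RPL11 can bind MDM2, a ubiquitin ligase, when assembly is disturbed.

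The start of the transcript is shown for members whose RNA levels differed between the groups or that form a core and paralog pair. Each line gives 30 bases around the RefSeq start (GRCh38.p14), 15 before it and 15 from it on, read 5′ to 3′ on the gene's strand. Capitals mark the unbroken run of C and T from the first transcribed base.
RPLP0 (chr12:120201097-120201126, minus strand): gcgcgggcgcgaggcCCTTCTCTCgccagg
RPSA (chr3:39406705-39406734, plus strand): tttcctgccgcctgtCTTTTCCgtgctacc
RPL7A (chr9:133348203-133348232, plus strand): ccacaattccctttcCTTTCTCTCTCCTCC
RPS6 (chr9:19380222-19380251, minus strand): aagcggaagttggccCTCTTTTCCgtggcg
RPL3 (chr22:39319609-39319638, minus strand): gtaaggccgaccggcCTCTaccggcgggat
RPS27 (chr1:153990747-153990776, plus strand): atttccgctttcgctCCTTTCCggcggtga
RPS27L (chr15:63157463-63157492, minus strand): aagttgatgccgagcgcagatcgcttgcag
RPL26 (chr17:8383179-8383208, minus strand): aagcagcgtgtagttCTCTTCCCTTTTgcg
RPL26L1 (chr5:172958714-172958743, plus strand): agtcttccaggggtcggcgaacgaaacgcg
RPL22 (chr1:6199581-6199610, minus strand): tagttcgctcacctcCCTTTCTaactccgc
RPL22L1 (chr3:170870181-170870210, minus strand): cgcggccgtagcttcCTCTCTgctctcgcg
RPL36AL (chr14:49620612-49620641, minus strand): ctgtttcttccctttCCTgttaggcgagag

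Core genes such as RPL7A, RPL26 and RPS6 start in a long pyrimidine run, whereas RPS27L and RPL26L1 start with no run and RPL36AL with 3 pyrimidines. RPL22L1 starts with a run of 6, so paralogs differ among themselves. A TOP tract was counted where the first base is C and at least 4 C or T follow, a definition settled after the sequences were seen. RefSeq windows were matched for 67 of the 85 members, and 47 of them, or 70.1%, hold the tract at a listed start. The share is 5.14% of 27303 genes in the same table. By kind, 46 of 62 core members and 1 of 5 paralogs hold it. If the start may lie up to 5 bases away, the tract is found in 55 of the 67 members, or 82.1%, against 25.2% of all genes. Mitochondrial ribosomal proteins, which work in another ribosome, hold it in 8.70% of 69 genes, and ribosome assembly factors in 13.3% of 30.

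The windows were also searched, on both strands, for short motifs over 250 bases before to 50 after the start. The AP-1 motif TGACTCA, the kind of site that JunD is known to bind, is present in 1 member, RPL24, or 1.49% of members against 6.05% of all genes. The related motif TGACGTCA is in RPL3, RPL18 and RPLP2, or 4.48% against 2.25%. The ETS motif CCGGAAG is in 24 members, or 35.8% against 12.2%, the MYC motif CACGTG in 5, or 7.46% against 8.78%, and the GC box GGGCGG in 39, or 58.2% against 48.3%. Of 15841 protein-coding genes, the closer comparison, 5.26% hold TGACTCA, 3.0% TGACGTCA, 16.5% the ETS motif, 10.9% the MYC motif and 64.3% the GC box, so the members' share for the GC box lies under that of these genes and above that of all genes. These differences were not tested. No motif contains another. A match is a description of letters and no evidence of binding. The 250 bases before the start are shown for RPLP0, the member with the largest fall, and RPS27L, the member that rose. Capitals mark motif matches, of which RPLP0 has 0 and RPS27L 2, a GC box and an ETS motif.
RPLP0 (chr12:120201112-120201361, minus strand): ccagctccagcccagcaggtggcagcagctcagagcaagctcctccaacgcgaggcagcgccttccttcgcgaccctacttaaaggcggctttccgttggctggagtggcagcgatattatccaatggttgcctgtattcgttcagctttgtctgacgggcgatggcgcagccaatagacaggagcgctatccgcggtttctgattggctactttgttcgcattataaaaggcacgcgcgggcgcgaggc
RPS27L (chr15:63157478-63157727, minus strand): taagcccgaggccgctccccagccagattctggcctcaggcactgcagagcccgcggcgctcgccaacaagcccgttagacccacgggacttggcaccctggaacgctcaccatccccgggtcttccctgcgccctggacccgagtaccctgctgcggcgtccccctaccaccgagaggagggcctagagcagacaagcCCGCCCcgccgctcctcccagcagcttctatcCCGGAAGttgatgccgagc

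The 6 RNA libraries held 15967955 to 29617655 reads assigned to genes. JUND itself stood at 70.3, 63.5 and 102.7 RPKM in JunD libraries 1 to 3 and at 10.5 to 13.2 RPKM with the empty vector. RPKM divides the reads of a gene by its exon length and by all assigned reads of the library. Of 6 epithelial markers, KRT7, KRT8 and KRT18 were well above 1 RPKM and their list summed to 300 to 328 RPKM with JunD and 403 to 440 RPKM with EV, while KRT19, EPCAM and CDH1 had group means of at most 0.176 RPKM. No leukocyte, endothelial or mature airway marker reached a mean of 1 RPKM, and their lists summed to at most 0.386, 0.0664 and 0.923 RPKM in any library. The 4 fibroblast markers matched summed to 2.80 to 3.41 RPKM with JunD and 6.26 to 7.62 RPKM with EV, nearly all of it PDGFRB, which fell by 0.94 on the log2 scale (adjusted p = 0.000422). KRT8 fell by 0.65, KRT18 by 0.38 and KRT7 by 0.29. The part of these shifts in the results on ribosomal proteins was not tested.

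In the EV libraries the tested members spanned a 302-fold range of mean RPKM. Of the 83 members with a mean of at least 1 RPKM over the 6 libraries, 33 had an EV mean of at least 100 RPKM and 3 of under 10 RPKM, with a median of 79.8 RPKM. RPL23A, a protein near the exit of the peptide tunnel, was highest at 852 ± 25.5 (SD, n = 3) RPKM, 2.00-fold above RPL36AL at 425 ± 3.40 (SD, n = 3) RPKM. RPL19, which bridges the subunits, followed at 419.9 ± 5.56 (SD, n = 3) RPKM. RPL36AL and RPL19 lay within 1.01-fold of each other, a difference smaller than the SD of RPL19. The lowest tested members were RPS27L at 4.80 ± 0.47 (SD, n = 3), RPL22L1 at 3.44 ± 0.229 (SD, n = 3) and RPS29 at 2.82 ± 0.493 (SD, n = 3) RPKM. RPKM divides by the summed exon length of the annotation, 9783 bases for RPS29 and 9127 for RPS27L against a median of 2977, and low values of these genes carry that length. RPL3L, a muscle paralog, and RPS10L had 2 reads each over all 6 libraries and were not tested.

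Ribosomal protein genes took a smaller share of the reads in JunD libraries 1 and 2 than in any EV library, but the groups overlapped. Members took 2.45, 2.64 and 2.82% of assigned reads in JunD libraries 1 to 3 and 2.95, 2.96 and 2.76% in EV libraries 1 to 3. JunD library 3 was above EV library 3. The means were 2.64% ± 0.183 and 2.89% ± 0.114 (SD, n = 3 each), a difference of -0.255 percentage points (two-sided exact permutation test, p = 0.2, with 0.1 the smallest possible). By TPM the shares were 2.60, 2.69 and 2.90% with JunD and 2.88, 2.89 and 2.72% with EV, and the difference was -0.100. Large-subunit genes took 1.80 to 2.02% with JunD and 2.00 to 2.13% with EV, and small-subunit genes 0.650 to 0.794% and 0.759 to 0.835%. In bulk RNA, fewer cells of a type and less RNA per cell cannot be told apart.

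**Figure D1:**
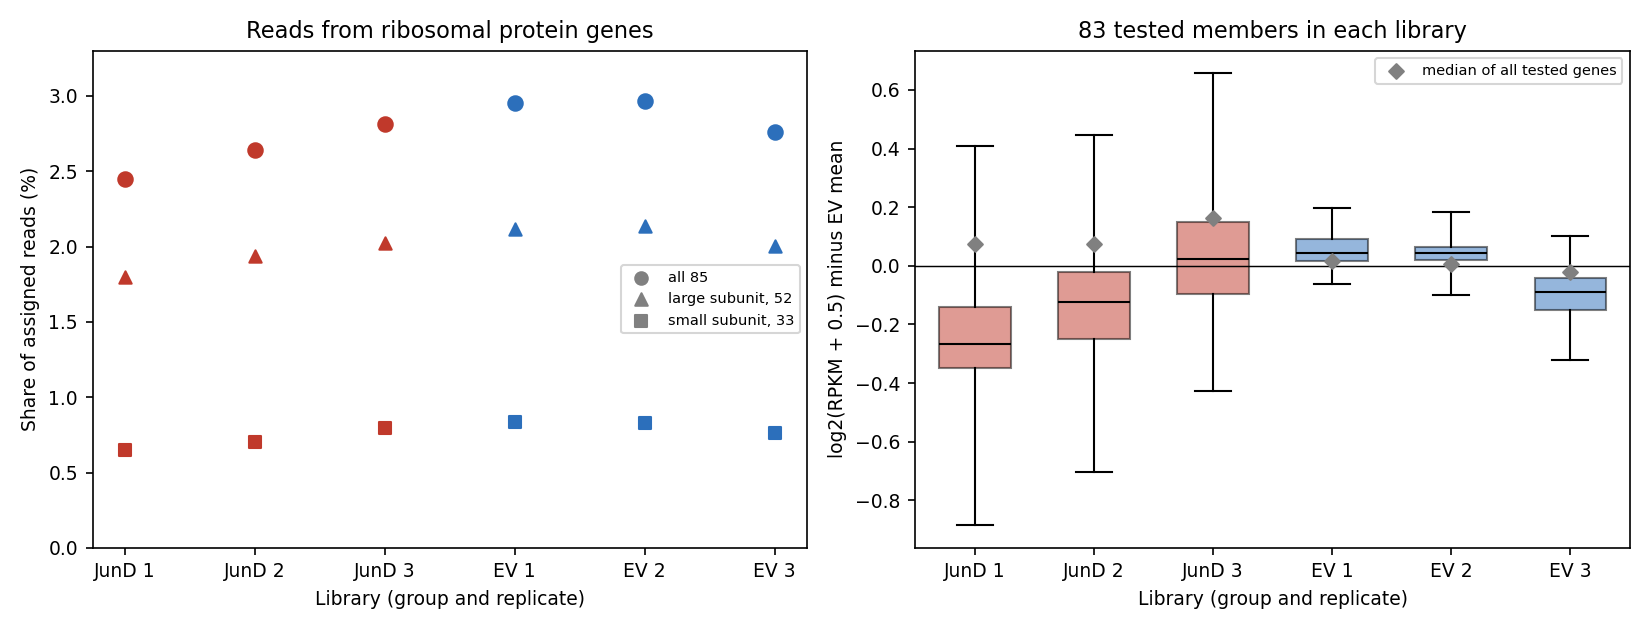
Left, share of assigned reads (%) from all 85 members (circles), the 52 of the large subunit (triangles) and the 33 of the small subunit (squares) in each library. Right, log2(RPKM + 0.5) of the 83 tested members minus each gene's EV mean, with boxes at the quartiles, whiskers at the extremes and grey diamonds at the median of all tested genes; member medians are -0.27 in JunD 1, -0.12 in JunD 2 and 0.02 in JunD 3, and EV 3 lies lowest of its group at -0.09.

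The members moved together between libraries of 1 group. Relative to the EV mean, their median log2 difference was -0.27, -0.12 and 0.02 in JunD libraries 1 to 3 and 0.05, 0.04 and -0.09 in EV libraries 1 to 3. Over all tested genes these medians were 0.08, 0.07 and 0.16 with JunD and 0.02, 0.0045 and -0.02 with EV. JunD library 3 was the highest of its group for 68 of 83 members, or 81.9%, against 55.6% of all tested genes. JunD library 1 was the lowest of its group for 71, or 85.5% against 36.2%, and EV library 3 the lowest of its group also for 71, or 85.5% against 46.7%. With both libraries numbered 3 set aside, a choice made after seeing the data, JunD libraries 1 and 2 lay below EV libraries 1 and 2 for 64 members. That is 77.1% against 34.1% of all genes. With all 6 libraries, every JunD library lay below every EV library for 18 of 83 members and for 18.5% of all tested genes.

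Gene by gene, 15 of the 83 tested members fell with JunD and 1, RPS27L, rose (limma on log2(RPKM + 0.5), Benjamini-Hochberg adjusted p under 0.05 over all 13379 tested genes). Among all tested genes 14.7% fell and 31.5% rose. The share of members that fell, 18.1%, is near the background, and the share that rose, 1.20%, is far under it. The median change of members was -0.09 on the log2 scale against 0.10 for all tested genes, and 66 of 83 members had a fold change below 0. The JunD and EV libraries did not overlap for 18 members that were lower and 3 that were higher with JunD, where 18.5% and 38.8% of all tested genes did so. The median of members minus that of all genes was -0.19 with RPKM, -0.20 with median of ratios, -0.20 with TPM and -0.11 with quantile normalization. The number that fell was 36 with median of ratios, which moved the median of all genes to -0.0039, or 43.4% of members against 22.5% of all genes. It was 7 with TPM, or 8.43% against 11.3%, and 17 with quantile normalization, or 20.5% against 24.2%, so the share of members lay above that of all genes with RPKM and median of ratios and below it with the other scalings. These differences in share were not tested. Of all called genes, 68.2% were higher with JunD by RPKM, 50.1% with median of ratios, 76.9% with TPM and 45.0% with quantile normalization. Single libraries moved the count both ways. Without JunD library 3 it was 33, or 39.8% against 19.8% of all genes, and without both libraries numbered 3, a setting chosen after seeing the data, 49, or 59.0% against 22.7%. Without JunD library 1 it was 8, or 9.64% against 11.8%, without JunD library 2 it was 9, or 10.8% against 10.8%, and without EV library 1 or 2 it was 6, or 7.23% against 10.0% and 9.96%. With the replicate number as a block the count was also 6, or 7.23% against 8.88% of all genes. It is not known whether these numbers pair the samples.

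**Figure D2:**
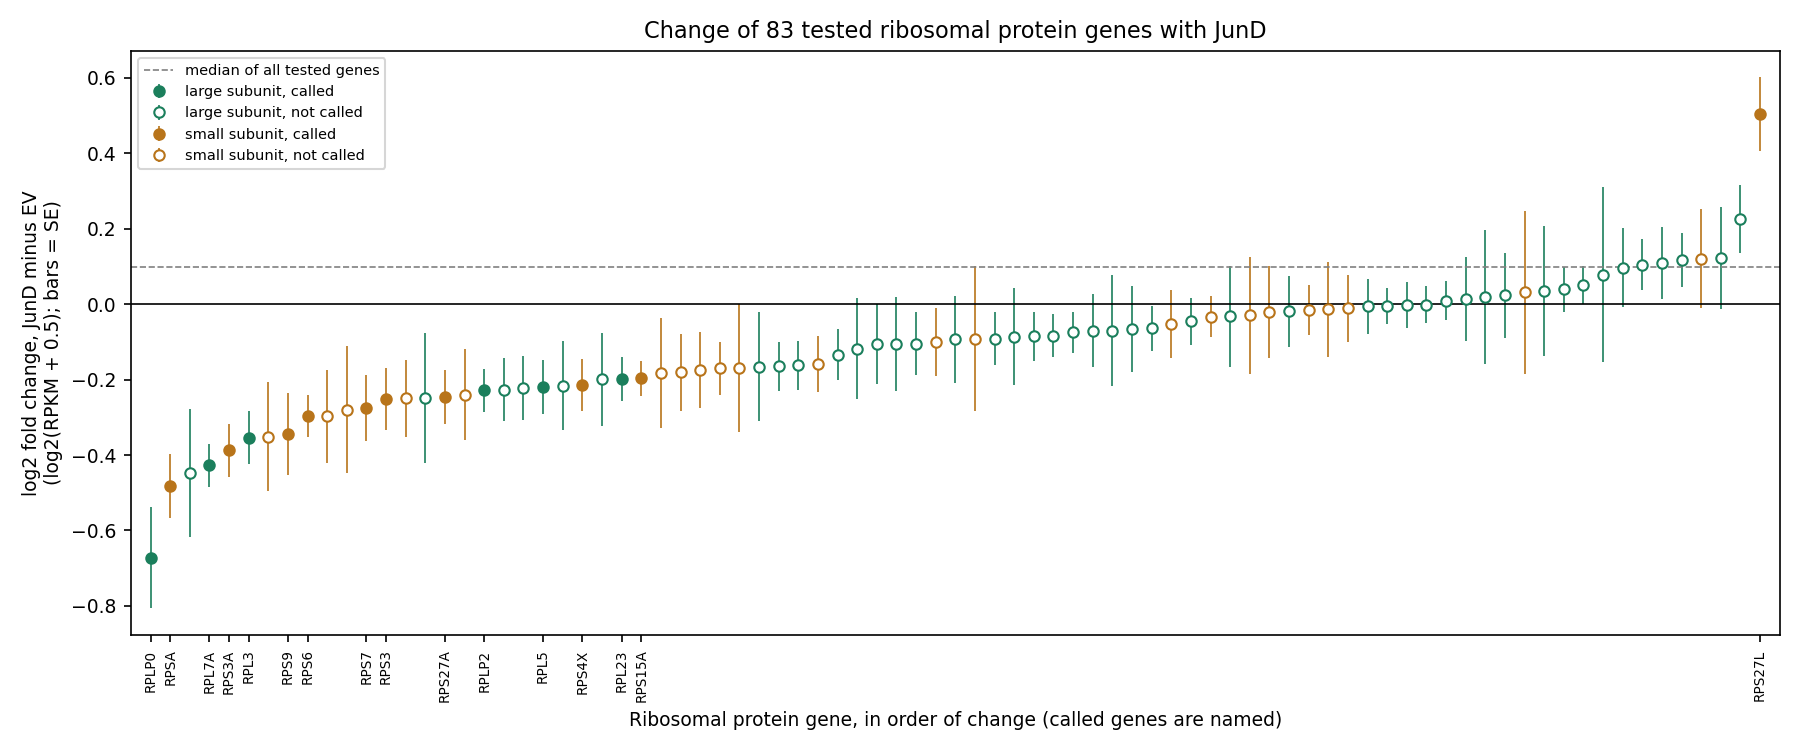
Log2 fold change (JunD minus EV, on log2(RPKM + 0.5)) with SE for the 83 tested members in order, with names under the called ones, green for the large and brown for the small subunit, filled where the adjusted p is under 0.05, and a dashed line at the median of all tested genes, 0.10. The filled points are 15 members that fell, from RPLP0 at -0.67 to RPS15A at -0.20, and RPS27L at 0.50.

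Of the 15 calls, 6 held under all 14 alternatives, as did that of RPS27L. The 6 are RPLP0, RPSA, RPL7A, RPS3A, RPL3 and RPS6. The other 9 were lost in 4 to 10 alternatives. These counts cover scalings, pseudocounts, the filter, the replicate number as a block, each library left out and both libraries numbered 3 left out, the last of these chosen after seeing the data.

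RPLP0, the base of the stalk that recruits elongation factors, fell most. It spans chr12:120196686-120201235 on the minus strand in the table (GRCh38) and stood at 72.3, 82.1 and 99.5 RPKM in JunD libraries 1 to 3 and 147, 139 and 118 RPKM in EV libraries 1 to 3. All JunD libraries lay below all EV libraries, with JunD library 3 and EV library 3 closest to each other. The change was -0.67 ± 0.13 (SE), adjusted p = 0.00715. The stalk proteins that bind to it moved less. RPLP2 stood at 219, 239 and 236 RPKM in JunD libraries 1 to 3 and 268, 269.8 and 275 RPKM in EV libraries 1 to 3, with no overlap, and changed by -0.23 ± 0.06 (SE), adjusted p = 0.0162, a call lost in 4 of 14 alternatives. RPLP1 stood at 108, 118 and 124 RPKM in JunD libraries 1 to 3 and 127, 128 and 118 RPKM in EV libraries 1 to 3, with overlapping groups, and its change of -0.09 had a 95% interval from -0.26 to 0.08.

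RPSA, a small-subunit protein near the mRNA exit that is also known as a laminin receptor precursor, stood at 79.1, 82.8 and 94.4 RPKM in JunD libraries 1 to 3 and 122, 125 and 111 RPKM in EV libraries 1 to 3. JunD library 3 was highest of its group and EV library 3 lowest, and the groups did not overlap. RPSA changed by -0.48 ± 0.08 (SE), adjusted p = 0.00413. RPS3A, a neighbour on the small subunit, stood at 105, 110.4 and 119 RPKM in JunD libraries 1 to 3 and 148, 152 and 137 RPKM in EV libraries 1 to 3 and was also lower in each JunD library than in any EV library, with a change of -0.39 ± 0.07 (SE), adjusted p = 0.00484. RPS6, the small-subunit target of the S6 kinases, stood at 294, 318 and 306 RPKM in JunD libraries 1 to 3 and 382, 381 and 365 RPKM in EV libraries 1 to 3. All JunD libraries lay below all EV libraries, with a change of -0.30 ± 0.06 (SE), adjusted p = 0.00549. RPS9, known for its part in decoding accuracy, stood at 22.5, 24.6 and 28.0 RPKM in JunD libraries 1 to 3 and 34.9, 32.6 and 28.2 RPKM in EV libraries 1 to 3, where JunD library 3 almost reached EV library 3. Its change of -0.34 ± 0.11 (SE), adjusted p = 0.0386 was lost in 7 of 14 alternatives.

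On the large subunit, RPL7A, a protein on the surface of the large subunit, stood at 296, 301 and 310.3 RPKM in JunD libraries 1 to 3 and 421, 412 and 388 RPKM in EV libraries 1 to 3. JunD libraries were tightly grouped and well below EV, with a change of -0.43 ± 0.06 (SE), adjusted p = 0.00137, the smallest adjusted p among members. RPL3, which reaches towards the peptidyl transferase centre, stood at 127, 124 and 141 RPKM in JunD libraries 1 to 3 and 174, 168 and 159 RPKM in EV libraries 1 to 3. The groups did not overlap and the change was -0.35 ± 0.07 (SE), adjusted p = 0.00672. RPL7 stood at 141, 151 and 201 RPKM in JunD libraries 1 to 3 and 237, 252 and 182 RPKM in EV libraries 1 to 3 and changed by -0.45 ± 0.17 (SE), adjusted p = 0.0696, so it was not called. JunD library 3 was above EV library 3 for RPL7. With a library left out the change of RPL7 ran from -0.60 to -0.35, and without JunD library 3 RPL7 fell by 0.60 (adjusted p = 0.014). RPL7 was called with median of ratios (adjusted p = 0.0194). It was not called with TPM (adjusted p = 0.0984) or with quantile normalization (adjusted p = 0.0512).

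RPL5 and RPL11, the partners that can bind MDM2, did not share a pattern. RPL5 stood at 309.7, 326 and 283 RPKM in JunD libraries 1 to 3 and 341, 355 and 373 RPKM in EV libraries 1 to 3, where JunD library 3 was the lowest of all, unlike in most members. It fell by 0.22 with an adjusted p of 0.0443, a call lost in 10 of 14 alternatives. RPL11 stood at 125, 136 and 161 RPKM in JunD libraries 1 to 3 and 146, 148 and 124 RPKM in EV libraries 1 to 3, with overlapping groups and a change of 0.01 (95% interval from -0.25 to 0.28), and its sign turned to -0.10 with median of ratios. MDM2 rose by 0.73 (adjusted p = 0.000291) and MDM4 was under the filter.

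**Figure D3:**
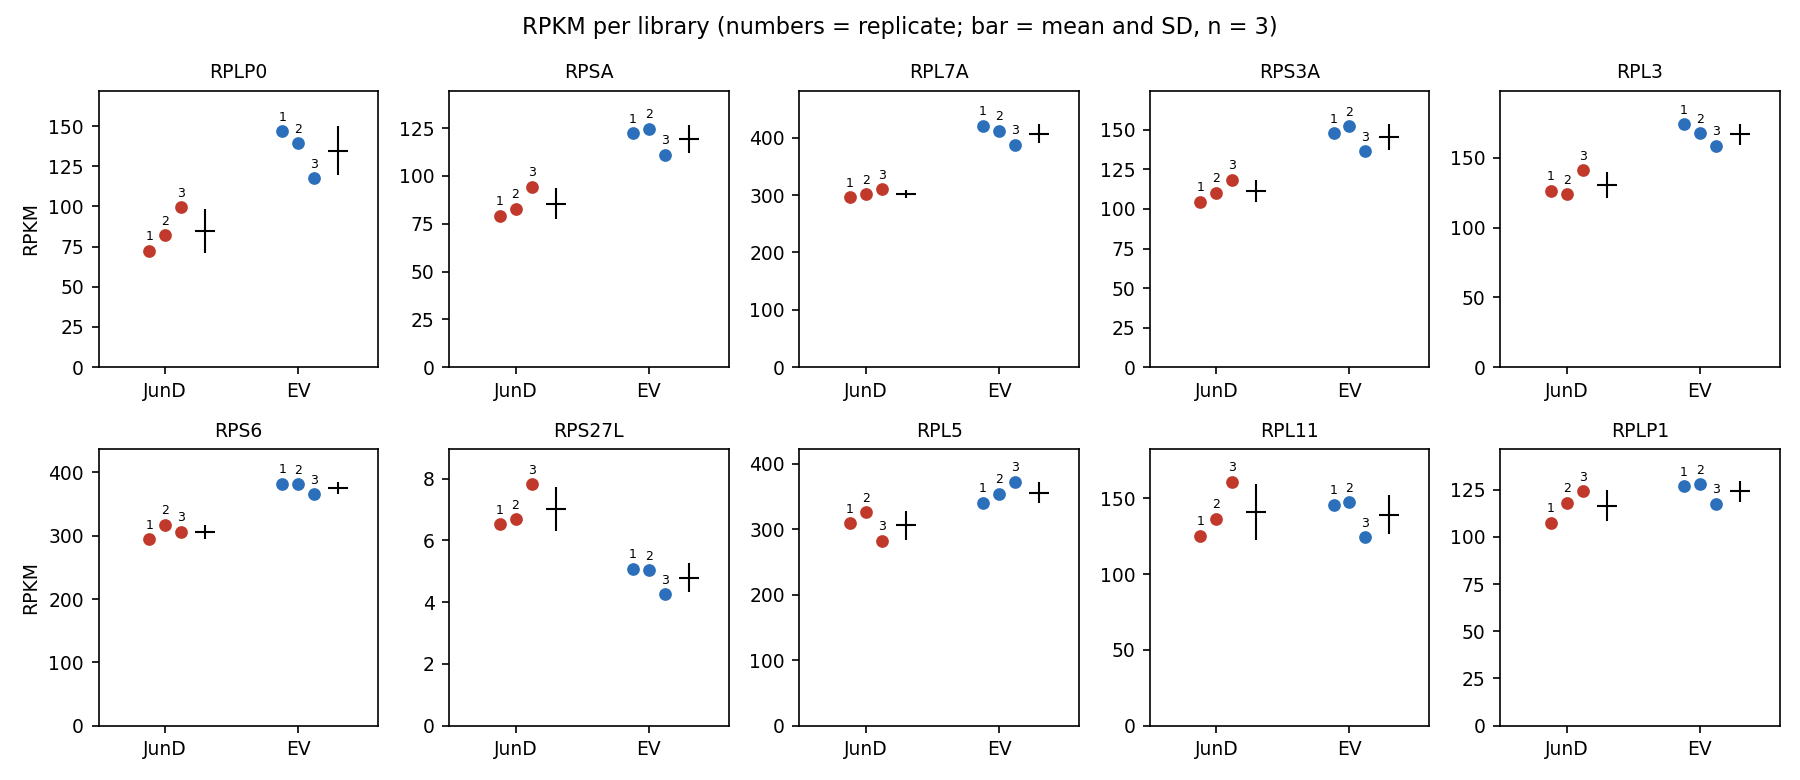
RPKM of 10 members in each library, with JunD in red, EV in blue, replicate numbers beside the points and a bar for mean and SD (n = 3). The groups are apart for RPLP0, RPSA, RPL7A, RPS3A, RPL3, RPS6, RPL5 and RPS27L, and overlap for RPL11 and RPLP1.

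The remaining members that fell were RPS7 by 0.28, RPS3 by 0.25, RPS27A by 0.25, RPS4X by 0.21, RPL23 by 0.20 and RPS15A by 0.20 on the log2 scale. RPS3 sits where mRNA enters the ribosome, and RPS27A is made as a fusion with ubiquitin. RPS15A was the most even of them, at 22.0, 22.7 and 22.7 RPKM in JunD libraries 1 to 3 and 25.8, 25.9 and 25.7 RPKM in EV libraries 1 to 3. Its 6 values form separate groups with an SD of 0.409 and 0.119 RPKM, so a small difference passed the test, although not with TPM, with the replicate block or without EV library 1 or 2. RPS2 changed by -0.35 and was not called (adjusted p = 0.0892). RPL41 at -0.16 and RPL35 at -0.16 had groups that did not overlap and were not called.

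The subunits were compared in each library. Of the large subunit 6 of 51 tested members fell, or 11.8%, and 0 rose, with a median of -0.07. Of the small subunit 9 of 32 fell, or 28.1%, and 1 rose, with a median of -0.18, where 14.7% of all tested genes fell and 31.5% rose. With median of ratios 19 and 17 fell, or 37.3% and 53.1% against 22.5% of all genes, and with TPM 4 and 3, or 7.84% and 9.38% against 11.3%. The mean log2(RPKM + 0.5) of large-subunit members minus that of small-subunit members, in which any scaling of a library nearly cancels, was 0.538, 0.569 and 0.484 in JunD libraries 1 to 3 and 0.441, 0.457 and 0.506 in EV libraries 1 to 3. JunD library 3 was under EV library 3, so the groups overlapped. The difference of 0.062 did not pass (two-sided exact permutation test, p = 0.2, n = 3 each), and without both libraries numbered 3 it was 0.104. The SDs were 0.0428 with JunD and 0.0340 with EV, and 3 against 3 libraries allow no p below 0.1.

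Among the paralogs, RPS27L rose and no gene fell. Of 77 core members 15 fell, or 19.5%, and 0 rose, with a median of -0.11. Of the 6 tested paralogs 0 fell and 1 rose, or 16.7%, with a median of 0.06 that turned to -0.05 with median of ratios. In the same fit 14.7% of all tested genes fell and 31.5% rose. With median of ratios RPL26L1 fell, by 0.20 (adjusted p = 0.0453). The difference between core and paralogs as classes was not tested. RPS27L spans chr15:63125872-63158021 on the minus strand and stood at 6.52, 6.70 and 7.83 RPKM in JunD libraries 1 to 3 and 5.09, 5.04 and 4.25 RPKM in EV libraries 1 to 3. JunD was higher in all libraries and RPS27L rose by 0.50 ± 0.10 (SE), adjusted p = 0.00624. Its core partner RPS27 stood at 161, 218 and 229 RPKM in JunD libraries 1 to 3 and 182, 182 and 189 RPKM in EV libraries 1 to 3, where JunD library 1 was lowest and the groups overlapped (log2 change 0.12, 95% interval from -0.19 to 0.43). Log2 of RPS27L over RPS27 was 0.38 higher with JunD and did not overlap between groups.

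RPL22L1, which can stand in for RPL22, stood at 3.82, 4.63 and 3.91 RPKM in JunD libraries 1 to 3 and 3.59, 3.18 and 3.56 RPKM in EV libraries 1 to 3, with each JunD library above each EV library. The log2 change of 0.23 was not called (adjusted p = 0.0796) but was with TPM (0.31, adjusted p = 0.0273). RPL22 stood at 160.5, 182 and 169 RPKM in JunD libraries 1 to 3 and 164, 166 and 184 RPKM in EV libraries 1 to 3 and its change of -0.01 had a 95% interval from -0.18 to 0.17. RPL36AL, the second highest member, stood at 442, 451 and 428 RPKM in JunD libraries 1 to 3 and 427, 421 and 427 RPKM in EV libraries 1 to 3, apart between groups but by a log2 change of 0.05 that was not called and turned to -0.07 with median of ratios. RPL36A, its partner, stood at 94.8, 109 and 104 RPKM in JunD libraries 1 to 3 and 91.5, 94.3 and 99.3 RPKM in EV libraries 1 to 3, with overlap.

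RPL7L1, a relative of RPL7 that works in assembly, was even, at 21.3, 21.3 and 22.2 RPKM in JunD libraries 1 to 3 and 21.4, 22.0 and 21.6 RPKM in EV libraries 1 to 3, while RPL7 ranged from 141 to 252 RPKM. RPL26L1 stood at 61.3, 63.6 and 64.6 RPKM in JunD libraries 1 to 3 and 66.4, 64.0 and 70.6 RPKM in EV libraries 1 to 3 and RPL26 at 244, 252 and 216 RPKM in JunD libraries 1 to 3 and 213, 219.6 and 222 RPKM in EV libraries 1 to 3. Their log2 changes of -0.08 and 0.12 were not called. RPL39L, which is best known from testis, stood at 23.7, 22.3 and 38.6 RPKM in JunD libraries 1 to 3 and 29.8, 28.2 and 20.6 RPKM in EV libraries 1 to 3 and RPL39 at 22.7, 25.2 and 35.4 RPKM in JunD libraries 1 to 3 and 28.3, 30.0 and 22.9 RPKM in EV libraries 1 to 3. Both were highest in JunD library 3, and the sign of each change turned without libraries numbered 3.

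Across the 6 pairs the log2 ratio of paralog to core, JunD minus EV, was 0.44 for RPL7L1 over RPL7, 0.38 for RPS27L over RPS27, 0.23 for RPL22L1 over RPL22, 0.06 for RPL39L over RPL39, -0.06 for RPL36AL over RPL36A and -0.20 for RPL26L1 over RPL26. By two-sided exact permutation tests over the 3 and 3 libraries, p was 0.1 for RPS27L and RPL22L1, the smallest possible, 0.2 for RPL7L1 and RPL26L1, 0.5 for RPL36AL and 0.8 for RPL39L. Benjamini-Hochberg adjusted over the 6 pairs, p was 0.3 for the first 4 of these, 0.6 and 0.8. With 3 libraries a group no pair could pass 0.05.

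**Figure D4:**
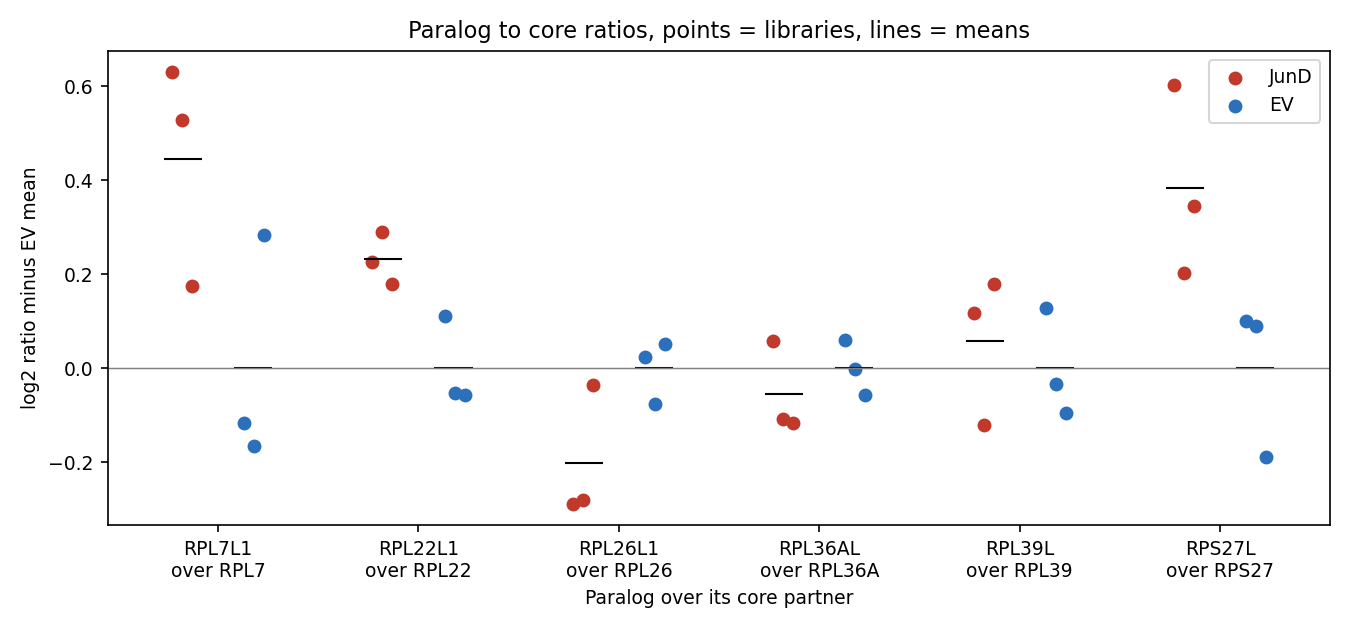
Log2 ratio of each paralog to its core partner in each library, minus the mean of the EV libraries, with JunD in red, EV in blue and lines at the group means. The groups are apart for RPL22L1 over RPL22 and RPS27L over RPS27 and overlap in the other 4 pairs.

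Members were also split by the TOP tract at the RefSeq start. Of 47 with the tract 9 fell and 0 rose, with a median of -0.09. Of 20 without it 3 fell and 1, RPS27L, rose, with a median of -0.09. The background was 14.7% of all tested genes that fell and 31.5% that rose. The difference between members with and without the tract was not tested. Reads measure RNA, and translation of these mRNAs was not measured.

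JunD binding was described at member starts, in cells for which the labels state no transfection, unlike those of the RNA libraries. The authors' deposited table lists 61360 peaks of the JunD library over the input library, each with a fold enrichment, a q-value and a pileup as the authors gave them. Of the 85 members, 12 had a peak within 1 kb of their start, or 14.1%, against 7.23% of all 29417 gene starts. These starts include many of genes with a mean under 1 RPKM, and no share over tested genes alone was taken. The difference was not tested, and 0 of the 12 had q under 0.05. Of all gene starts 0.418% have a peak with such a q. With RefSeq starts it was 11 of 67, or 16.4% against 8.03%. The 12 are RPL4, RPL8, RPL10, RPL19, RPL27, RPL27A, RPL34, RPL35A, RPS3, RPS10, RPS27 and RPS27A. In the authors' deposited table the peak at RPS27 (chr1:153990787-153991042), 28 bases from the start, has a fold enrichment of 3.37, a pileup of 15 and a q of 0.0525. The peak at RPS10 (chr6:34425783-34426066) has 3.90 and 9 with a q of 0.0721 in the authors' deposited table, and the peak at RPS27A (chr2:55231898-55232168) 3.58 and 11 with the same q. With 1 ChIP library there is no replicate of these values.

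Of the 12 members with a peak near the start, RPS3 and RPS27A fell and the other 10 were not called. Among all 83 tested members 18.1% fell, and among all tested genes 14.7%. A difference between members with and without a near peak was not tested. RPLP0, RPSA, RPL7A, RPS3A, RPL3, RPS6 and RPS27L have no peak within 1 kb of the start. Between the outer ends of the gene, 28 of 85 members hold a peak, or 32.9%, against 39.1% of all genes, whose median span is 12.5 kb where that of members is 5.52 kb. In the authors' deposited table those with q under 0.05 lie in RPL23A (chr17:28720808-28721079, fold enrichment 4.42, pileup 20, q = 0.000122) and RPL19 (chr17:39203096-39203409, 4.45, 10, q = 0.0188). RPL23A stood at 808, 852 and 786 RPKM in JunD libraries 1 to 3 and 846, 879.9 and 830.0 RPKM in EV libraries 1 to 3 and RPL19 at 411, 433 and 425 RPKM in JunD libraries 1 to 3 and 423, 423 and 414 RPKM in EV libraries 1 to 3, and neither was called.

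Genes related to the ribosome were read beside the members, where 14.7% of all tested genes fell and 31.5% rose. FAU and RACK1, ribosomal proteins with other names, changed by -0.05 and -0.11 and neither was called. Of 18 translation factors and other TOP mRNAs 5 fell, or 27.8%, and 0 rose, with a median of -0.15. PABPC1, the poly(A) binding protein, fell by 0.35, HNRNPA1, a splicing factor, by 0.32, EEF1G, an elongation factor subunit, by 0.26 and EIF3L, an initiation factor subunit, by 0.24. The call of HNRNPA1 was lost in 8 of the 14 alternatives, that of EIF3L in 4 and that of EEF1G in 1. The count of the 18 that fell moved with the setting. With the replicate block it was 1, or 5.56% against 8.88% of all genes, and with TPM 3, or 16.7% against 11.3%. With median of ratios it was 11, or 61.1% against 22.5%, and without JunD library 3 it was 9, or 50.0% against 19.8%. Among 78 mitochondrial ribosomal proteins 16 fell, or 20.5%, and 12 rose, or 15.4%, with a median of 0.01 that was -0.11 with median of ratios. MRPL51 fell by 0.51, MRPS6 by 0.47 and MRPS34 by 0.38, and MRPL49 rose by 0.38.

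Genes that make ribosomes were read in the same way, where 31.5% of all tested genes rose and 14.7% fell. Of 39 assembly factors 14 rose, or 35.9%, and 4 fell, or 10.3%, with a median of 0.16. With RPKM and all libraries these shares were near those of all genes, but the share that rose moved with the setting. With TPM 23 assembly factors rose, or 59.0% against 37.8% of all genes. Without JunD library 3 it was also 23, or 59.0% against 32.7%. RIOK2, a kinase of late small-subunit assembly, rose by 0.57, NOP2, a nucleolar RNA methyltransferase, by 0.48 and SDAD1 by 0.44, while HEATR3, which carries RPL5 into the nucleus, fell by 0.58. Of 14 genes of RNA polymerase I, which transcribes ribosomal RNA, 6 rose, or 42.9%, and 2 fell, or 14.3%, with a median of 0.19. RRN3, its initiation factor, rose by 0.74, TAF1D by 0.56, TAF1A by 0.56 and POLR1D by 0.52. Of 16 regulators 9 rose, or 56.2%, and 0 fell, with a median of 0.24. SESN2 and DDIT4, inhibitors of mTOR complex 1, rose by 2.25 and 1.17, MAX, the partner of MYC, by 0.70 and RHEB, an activator of mTOR, by 0.48. With median of ratios 22.6% of all tested genes rose and 22.5% fell. In that setting 6 assembly factors rose, or 15.4%, and 4 fell, or 10.3%, with a median of 0.06. There, 6 regulators rose, or 37.5%, and 4 fell, or 25%, with a median of 0.13. With the replicate block 5 assembly factors rose, or 12.8% against 21.0% of all genes, and 1 fell, or 2.56% against 8.88%.

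**Figure D5:**
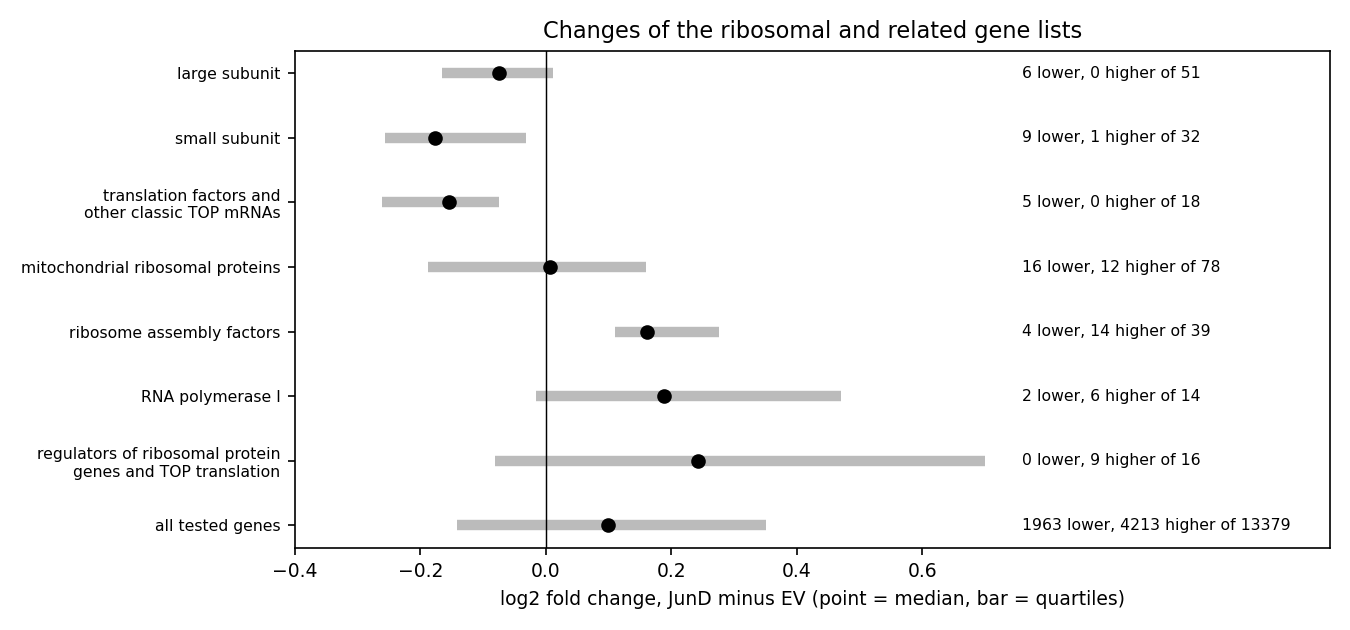
Median (point) and quartiles (bar) of the log2 fold change, JunD minus EV, for the subunits, the related lists and all tested genes, with the number that fell and rose beside each. Both subunits and the translation factors lie below 0, mitochondrial ribosomal proteins at 0.01, and assembly factors, RNA polymerase I and regulators above 0.

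Reads of members can be shared with pseudogenes and overlapping genes. The table holds 424 ribosomal protein pseudogene names, with 0.0713 to 0.0884% of assigned reads in a library, and 77 were tested. Of these 15 fell, or 19.5% against 14.7% of all tested genes, and 8 rose, or 10.4% against 31.5%, with a median of -0.17. RPS3AP6 fell by 0.46 and RPSAP54 by 0.66, beside the falls of RPS3A and RPSA, and RPL12P14 rose by 1.45 and RPL13AP20 by 0.57, while RPL12 and RPL13A changed by 0.04 and -0.0010. Nothing in the sources used here says how reads that fit several places were counted, so values of members with close copies are uncertain. RPL10 shares 55.5% of its exon length with other genes, RPL17 35.3%, RPS10 28.8% and RPS2 25.6%. Of 52 tested members that share under 5%, 8 fell, or 15.4%, near the 14.7% of all tested genes.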

How the data were processed

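RNA of BEAS-2B cells was sequenced in 3 JunD and 3 EV libraries. The authors deposited RPKM per gene with exon coordinates and the summed exon length. The build was GRCh38, and MACS2 2.1.1, bedtools 2.25.0, STAR 2.5.3a, Subread 1.5.1, featureCounts and Trimmomatic 0.36 were used, per the submitters' processing notes. Not given in the sources used here are annotation release, strand setting, treatment of reads with several matches and ChIP aligner. The deposited peak list compares the JunD precipitate with its input, per the labels, and gives for each peak a fold enrichment (a ratio), a p-value and a q-value, and a pileup, which is a coverage signal.

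RPKM times length gave whole reads for 100% of genes, within 0.01 read. Genes with a mean of at least 1 RPKM were fitted on log2(RPKM + 0.5) by limma 3.58.1 (R 4.3.3) with its trend option and no replicate block, and adjusted p is Benjamini-Hochberg over all tested genes, two-sided, called under 0.05. Fold changes on this scale understate the change of low genes. The fit was also run on simulated data with as many rises as falls, unlike these data. That run does not bear on the choice of scaling. Shares, subunit differences and paralog ratios were tested over libraries by exact permutation. Starts were taken from the outermost exon. Sequences are RefSeq's (GRCh38.p14).

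The members and lists were chosen with earlier results of these data known. Named are the 8 called members of largest change whose groups do not overlap, paralogs with their partners, the 3 highest and the 3 lowest members, RPL5, RPL11, RPS6, RPLP0, RPLP1, RPLP2 and RPSA, members with a near peak, and up to 4 genes of smallest p per other list. Further members are named after their values were seen, as were the motifs and the sequences shown chosen. Of 117 list and marker entries 112 matched the table, some through an older symbol. Alternatives were other pseudocounts and scalings, no filter, a replicate block, each library left out and other peak limits. A few genes are not reported here by name, though counts over members and lists include them.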

Additional observations from a re-analysis of the deposited data

How the results depend on the processing

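The number of members that fell, 15, was 9 without a filter, 36 with median of ratios, 7 with TPM, 6 with the replicate block and 6 to 33 with a library left out. Leaving out JunD library 1 gave 8, or 9.64% against 11.8% of all genes, and JunD library 2 gave 9, or 10.8% against 10.8%. Leaving out JunD library 3 gave 33, or 39.8% against 19.8%. Leaving out EV library 1 or 2 gave 6 each, or 7.23% against 10.0% and 9.96%, and EV library 3 gave 16, or 19.3% against 12.4%. Of members sharing under 5% of exon length 8 fell, or 15.4% against 14.7% of all tested genes. Without both libraries numbered 3, chosen after seeing the data, 49 fell, or 59.0% against 22.7%, and 2 rose, or 2.41% against 31.9%. In that setting the median was -0.23, the share of reads differed by -0.41 percentage points and the subunits by 0.104. The number that rose, 1, was 1.20% of members against 31.5% of all tested genes. It was 2 with TPM, or 2.41% against 37.8%, and with quantile normalization, or 2.41% against 19.9%. It was also 2 in 2 of the settings that left a library out, so 1 to 2 in those settings. With a library left out the median ran from -0.18 to -0.025, the share difference from -0.344 to -0.162, and the subunit difference from 0.043 to 0.085. The share difference was -0.100 by TPM. The number of members with a near peak, 12, was 26 within 5 kb, 7 at a fold enrichment of at least 3 and 0 at q under 0.05, where 22.2%, 4.42% and 0.418% of all gene starts had one. The ratio of RPL39L to RPL39 was 0.06, with a range of -0.00164 to 0.147 with a library left out, below 0 without JunD library 3. RPL39L, at 0.08, ranged from -0.17 to 0.22 and RPL39, at 0.02, from -0.16 to 0.15, and without both libraries numbered 3 they were -0.33 and -0.28. The causes were not tested beyond the smaller number of libraries.

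Whether replicate numbers pair the samples is not known. Same-numbered libraries had correlations of deviations of -0.17, -0.08 and -0.38, and with 3 libraries a group these cannot settle it. Without separate ChIP replicates, peak values carry no error. At 3 libraries a group, exact tests cannot go below 0.1, which limits every value per library.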
